A study of Mus musculus with 6 samples.

Results

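Chemokine receptors are cell surface proteins that couple to G proteins and steer leukocytes along gradients of small secreted chemokines. A differentiated T helper (Th) subset carries its own combination of them, and that combination helps to set which tissues the cells can enter. CCR4 and CCR8 are receptors known from Th2 cells, CCR6 marks most Th17 cells, CCR7 and CXCR5 guide T cells to and within lymph nodes, and CXCR4 binds CXCL12 in bone marrow and many other tissues. Open chromatin, where a transposase can cut, marks the promoters and enhancers of such genes and does not measure their RNA or protein.

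The genes described here are 9 chemokine receptor genes, Ccr2, Ccr3, Ccr4, Ccr6, Ccr7, Ccr8, Cxcr4, Cxcr5 and Cxcr6. They were chosen by name, with earlier results of these data known. For each gene, every accessible region within its annotated body or within 30 kb on either side was collected from the peak lists of 6 ATAC-seq libraries, which gave 102 regions of the 236017 in the whole series. The libraries came from wild-type C57BL6/J mice, whose naive CD4+ T cells (labelled as spleen) were activated with anti-CD3 and anti-CD28 and cultured for 5 days. The 3 conditions had 2 libraries each (replicates 1 and 3), and all 3 contained anti-IFN-γ. Dead cells were removed before the transposase reaction. Th2 cells received IL-4 and human IL-2. Th9 cells received IL-4, human IL-2 and TGF-β1. Th17 cells received IL-6, IL-23, IL-1β and TGF-β1, with anti-IL-4 and anti-IL-2. These are in vitro polarized cultures, and nothing in the sources used here says whether the 2 libraries of a subset came from separate mice or cultures, so the p-values measure only the spread between these libraries.

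The lists held 100317 to 142213 peaks. The mean fragment coverage that the peak caller took as background, recovered from the relation between fold enrichment and p, was 5.65 in Th9 replicate 1 and 11.2 to 17.7 in the other libraries, and the lowest fold enrichment in a list was 2.11 in Th9 replicate 1 and 1.71 to 1.83 in the others. The cytokine promoters matched the labels, with an Il9 promoter peak at percentiles 88.6 and 90.7 in Th9, 37.1 and 44.4 in Th2 and none in Th17, and an Il17f promoter peak only in the Th17 libraries (86.7 and 87.5). Il4 had a promoter peak in the Th9 and Th2 libraries (87.8 to 92.3) and none in Th17, and Il17a had one in Th17 (81.4 and 69.5) and a weaker one in Th2 replicate 3 (36.1). Of 6 T cell marker promoters, 5 had a peak in all 6 libraries, and 4 granulocyte marker promoters had none. The other T cell marker, Cd4, had a peak in 4 libraries (29.2 in Th9 replicate 3, 44.4 and 55.9 in Th2 and 19.2 in Th17 replicate 3). Of 5 myeloid markers, 3 had none, with Cd14 called in 3 libraries and Cd68 in 4. Of 3 NK cell markers, Klre1 was called in all 6 libraries, Klrb1c in 1 and Ncr1 in none, and of 2 plasmacytoid dendritic cell markers, Siglech was called in 2 libraries and Ccr9, itself a chemokine receptor of T cells, in all 6. Among B cell marker promoters, Cd79b had a peak in both Th9 libraries (percentiles 7.60 and 12.9), while Cd79a, Ms4a1 and Pax5 had none in any library. Throughout, a percentile is the rank of a peak's fold enrichment among all peaks of the same library, from 0 for the weakest to 100 for the strongest, and distances run along the gene's strand from its most upstream annotated start to the part of a region that most libraries shared.

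The sequences below belong to regions that differed between subsets. The first is the stretch just upstream of the Ccr8 start (RefSeq promoter table, build GRCm38.p6), since that promoter differed most. The others, from the GRCm38.p6 genome, come from the 5 distal regions outside exons with the widest gap in mean percentile between subsets, where a library without a peak counted as 0. Each is the part covered by every library that called the region, or its central 300 bases where that part was longer. Capitals mark short words searched on both strands, TGANTCA for AP-1, TTCNNNGAA for STAT factors, AGATAA for factors of the GATA family and TGTGGT for RUNX factors. None of these words overlapped another in the sequences shown.
Ccr8 upstream bases, chr9:120091883-120092113, plus strand: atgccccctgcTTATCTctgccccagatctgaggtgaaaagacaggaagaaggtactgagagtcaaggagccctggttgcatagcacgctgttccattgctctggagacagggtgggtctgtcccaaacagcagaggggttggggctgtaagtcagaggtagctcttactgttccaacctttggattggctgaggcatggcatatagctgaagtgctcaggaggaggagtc
Ccr8 18.7 kb upstream, chr9:120073296-120073556, plus strand: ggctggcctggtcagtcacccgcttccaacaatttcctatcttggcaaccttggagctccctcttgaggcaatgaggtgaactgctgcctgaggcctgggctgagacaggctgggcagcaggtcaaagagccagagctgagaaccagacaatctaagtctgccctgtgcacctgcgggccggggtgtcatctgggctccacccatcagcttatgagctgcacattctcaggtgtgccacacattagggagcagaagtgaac
Ccr8 12.0 kb upstream, chr9:120080065-120080231, plus strand: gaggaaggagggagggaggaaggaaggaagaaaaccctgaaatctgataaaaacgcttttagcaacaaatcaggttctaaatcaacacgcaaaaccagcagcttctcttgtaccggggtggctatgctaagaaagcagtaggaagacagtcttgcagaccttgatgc
Ccr3 intron, 1.3 kb downstream, chr9:124023162-124023288, plus strand: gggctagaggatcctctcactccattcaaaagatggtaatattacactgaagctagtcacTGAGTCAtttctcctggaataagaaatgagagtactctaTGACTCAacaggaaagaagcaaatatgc
Ccr6 9.2 kb upstream, chr17:8226838-8227092, plus strand: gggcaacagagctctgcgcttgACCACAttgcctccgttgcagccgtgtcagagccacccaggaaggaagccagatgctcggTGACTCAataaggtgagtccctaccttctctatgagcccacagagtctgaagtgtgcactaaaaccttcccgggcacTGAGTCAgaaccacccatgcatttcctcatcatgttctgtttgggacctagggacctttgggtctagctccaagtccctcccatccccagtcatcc
Ccr7 5.9 kb upstream, chr11:99160805-99161104, plus strand: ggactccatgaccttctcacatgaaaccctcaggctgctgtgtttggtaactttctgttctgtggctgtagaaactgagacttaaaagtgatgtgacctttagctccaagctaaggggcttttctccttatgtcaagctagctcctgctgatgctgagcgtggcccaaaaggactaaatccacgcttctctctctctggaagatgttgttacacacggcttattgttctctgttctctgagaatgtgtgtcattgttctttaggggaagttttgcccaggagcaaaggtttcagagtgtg

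The Ccr3 intron held 2 AP-1 words and the Th17-only region upstream of Ccr6 held 2 AP-1 words and 1 RUNX word. The upstream bases of Ccr8 held 1 GATA word, a word found in 9.52% of 32851 promoter windows of the same length. The other 3 sequences held none of the 4 words. Over all 236017 regions, a 300-base window at the shared part held an AP-1 word in 12.8%, a STAT word in 8.37%, a GATA word in 11.3% and a RUNX word in 23.3%. In the 102 receptor regions these shares were 17.6%, 10.8%, 6.86% and 28.4%. In the 25 of them that differed between subsets they were 20%, 20%, 12% and 36%, against 16.9%, 7.79%, 5.19% and 26.0% in the other 77. A match describes the letters in a window only.

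More of the receptor regions were shared by all subsets than followed one of them. Every library called 41 of the 102 (40.2%), against 21.4% of all regions and 26.4% of the regions within 30 kb of any protein-coding gene. The order turned with stricter peaks, to 26.4% against 33.5% of all regions at a -log10 q of at least 5 and to 24.3% against 36.5% at a fold enrichment of at least 4. Each library called between 63 and 72 of the 102, so no library stood apart in number. Another 23 regions (22.5%) were called in 1 library only, for which no share over all regions is given here. By position, 11 regions overlapped a promoter of the receptor itself (1000 bases upstream to 100 downstream of a start), 7 overlapped a promoter of another gene and 84 were distal. Every library called 7 of the 11 receptor promoter regions, against 67.4% of all regions on promoters, and 30 of the 84 distal ones, against 16.6% of all distal regions. The median width was 2465 bases for the receptor promoter regions and 595 bases for the distal ones. The map of regions by distance from the start shows the spread, with 18 regions each at Ccr4 and Cxcr5 and 4 at Cxcr6.

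**Figure D1:**
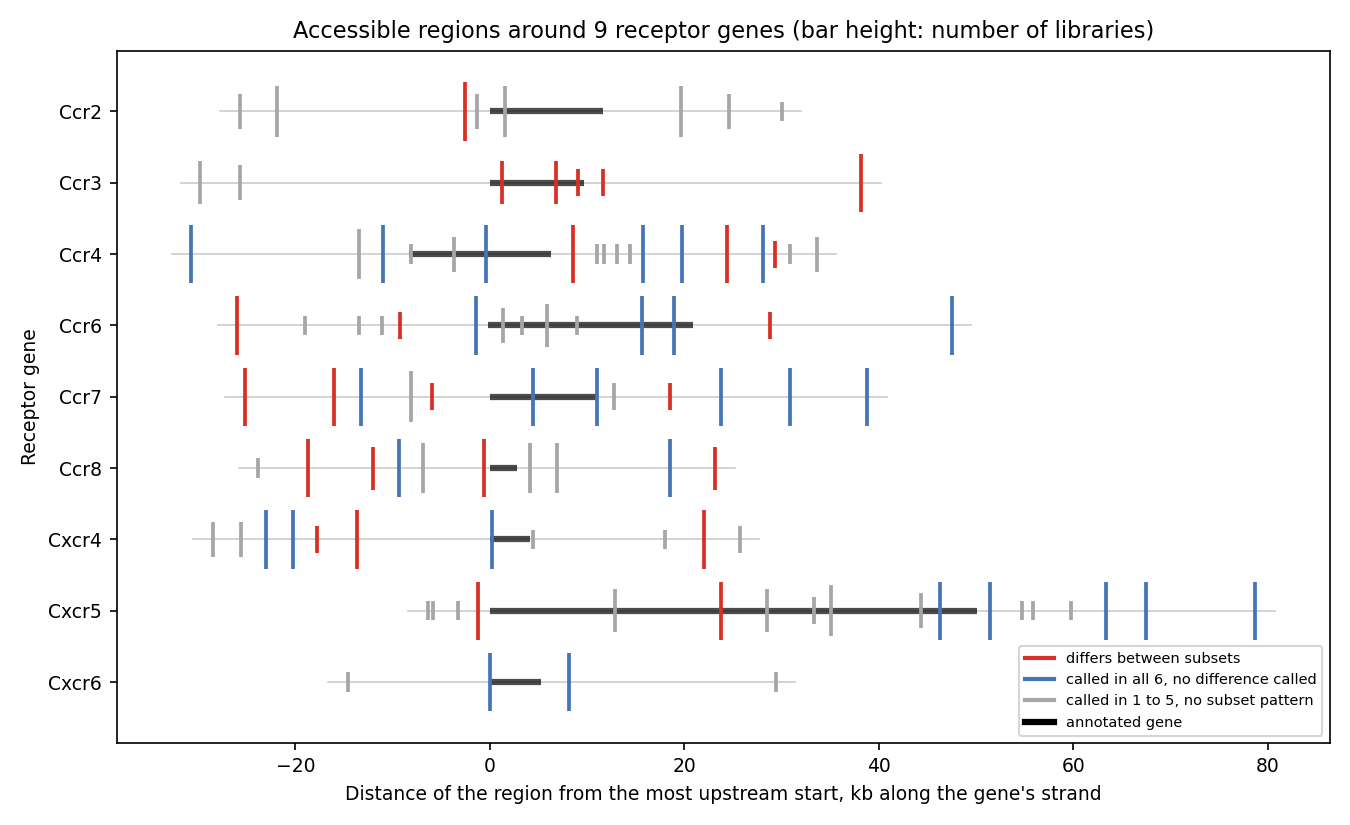
Position of the 102 regions around the 9 receptor genes, as the distance in kb along the gene's strand (x axis) from the most upstream start. Bar height grows with the number of libraries that called the region, colours separate the 25 regions that differed between subsets from the others, and thick black lines are the annotated genes. Ccr3 has 5 of its 7 regions in the differing class and Cxcr6 has none.

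A minority followed the subsets. A set of 4 regions was called in both Th9 and both Th2 libraries and in neither Th17 library (2.0% of all regions followed this pattern), with 2 at Ccr3 and 2 at Ccr8. Peaks in both Th2 libraries alone marked 3 regions (2.87% of all), at Ccr3 and Ccr6. Peaks in both Th9 libraries alone marked 3 (1.31% of all), at Ccr4, Ccr7 and Cxcr4. Peaks in both Th17 libraries alone marked 2 (1.7% of all), at Ccr6 and Ccr7. No receptor region was shared by Th2 and Th17 without Th9 (1.55% of all) or by Th9 and Th17 without Th2 (0.296% of all). No test was made of these small counts.

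For the 41 regions called in all 6 libraries, the quantile-normalised log2 fold enrichment was compared between subsets with limma, fitted on all 50493 such regions. Against Th2, the Th17 libraries were higher at 2 receptor regions and lower at 8 (background 2.32% and 4.93%). Against Th9, they were higher at 1 and lower at 9 (2.89% and 3.16%). Th9 was higher than Th2 at 2 and lower at 2 (0.883% and 1.93%). The median difference over the 41 regions was -0.05 (Th17 minus Th2), -0.17 (Th17 minus Th9) and 0.14 (Th9 minus Th2), against 0.032, 0.0012 and 0.015 over all regions. The calls depended on the scale. With the within-list percentile in place of log2 fold, limma called 0 of 50493 regions in each contrast, while 14 (Th17 against Th2), 13 (Th17 against Th9) and 5 (Th9 against Th2) of the 41 receptor regions had an unadjusted p under 0.05, against 10.9%, 11.6% and 8.33% of all regions tested. With a mean-variance trend added, an alternative chosen after the data were seen, the percentile gave 3, 1 and 0 receptor regions, against 0.757%, 0.242% and 0% of all regions.

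**Figure D2:**
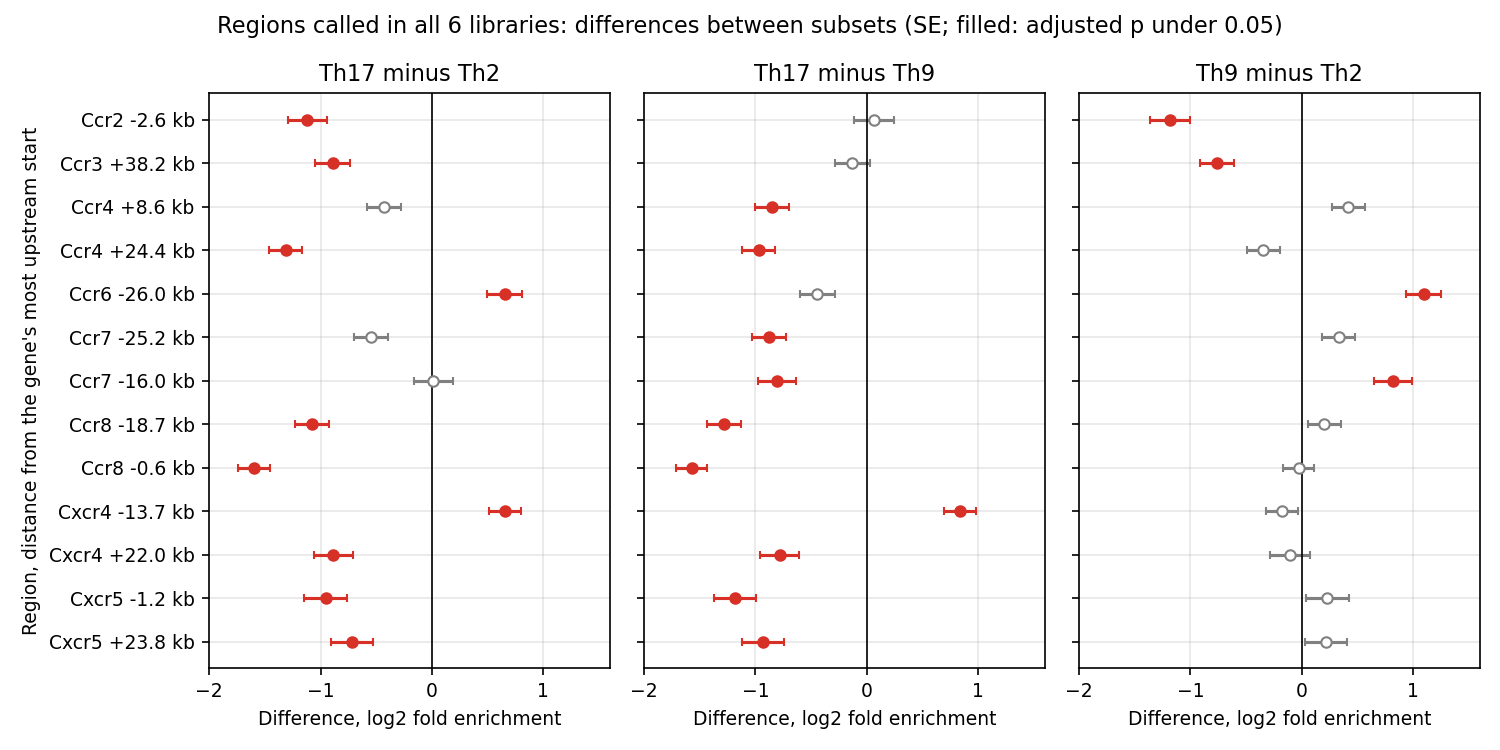
Difference in quantile-normalised log2 fold enrichment (x axis, with its SE) between subsets for the 13 receptor regions with a call in at least 1 contrast (y axis, distance from the start). Filled points have a limma adjusted p under 0.05, with 2 libraries per subset. Both Ccr8 regions lie below -1 in the 2 contrasts with Th17 and near 0 between Th9 and Th2.

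Ccr8, the receptor for CCL1, showed the largest log2 difference of the 41 regions. Its promoter region (chr9:120090255-120094276, mm10) had percentiles of 94.5 and 93.4 in Th9, 94.8 and 94.4 in Th2, against 59.1 and 49.9 in Th17. The Th9 and Th2 libraries were thus alike and the Th17 libraries lay far below them, with no overlap. In such bulk libraries, fewer cells with the region open and less opening per cell cannot be told apart. The log2 difference was -1.60 ± 0.14 (SE) for Th17 minus Th2 (limma adjusted p = 0.00052) and -1.57 ± 0.14 for Th17 minus Th9 (adjusted p = 0.0016), whereas Th9 minus Th2 was -0.03 (adjusted p = 0.95). Without any 1 library the differences ran from -1.55 to -1.67 against Th2 and from -1.49 to -1.64 against Th9. On the within-list percentile neither limma call passed (adjusted p = 0.101 and 0.104). With a trend, an alternative chosen after the data were seen, both passed (0.024 and 0.038).

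A second Ccr8 region, 18.7 kb upstream (chr9:120073131-120075523, intergenic), followed the promoter. Its percentiles were 89.5 and 85.6 in Th9, 85.7 and 85.1 in Th2, against 46.1 and 3.4 in Th17. The log2 difference was -1.08 ± 0.15 against Th2 (limma adjusted p = 0.0028) and -1.28 ± 0.15 against Th9 (adjusted p = 0.0026). Without any 1 library these differences ran from -0.965 to -1.19 and from -1.181 to -1.396. Neither call passed on the within-list percentile (adjusted p = 0.306 and 0.262) or on it with a trend (0.0789 and 0.0926). The other 2 differing regions at Ccr8 had no Th17 peak. The one 12.0 kb upstream (chr9:120079836-120080260) had percentiles of 38.5 and 76.6 in Th9 and 69.3 and 70.9 in Th2. The one 23.2 kb downstream (chr9:120115021-120116507), which overlaps an exon of the neighbour Slc25a38, had 37.4 and 35.9 in Th9 and 63.8 and 59.8 in Th2. The Slc25a38 promoter, 18.5 kb downstream, lay between 96.3 and 97.6 in all 6 libraries. The peaks at Ccr8 covered 7.66 and 12.7 kb in Th9, 10.3 and 10.6 kb in Th2, against 5.32 and 6.17 kb in Th17.

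**Figure D3:**
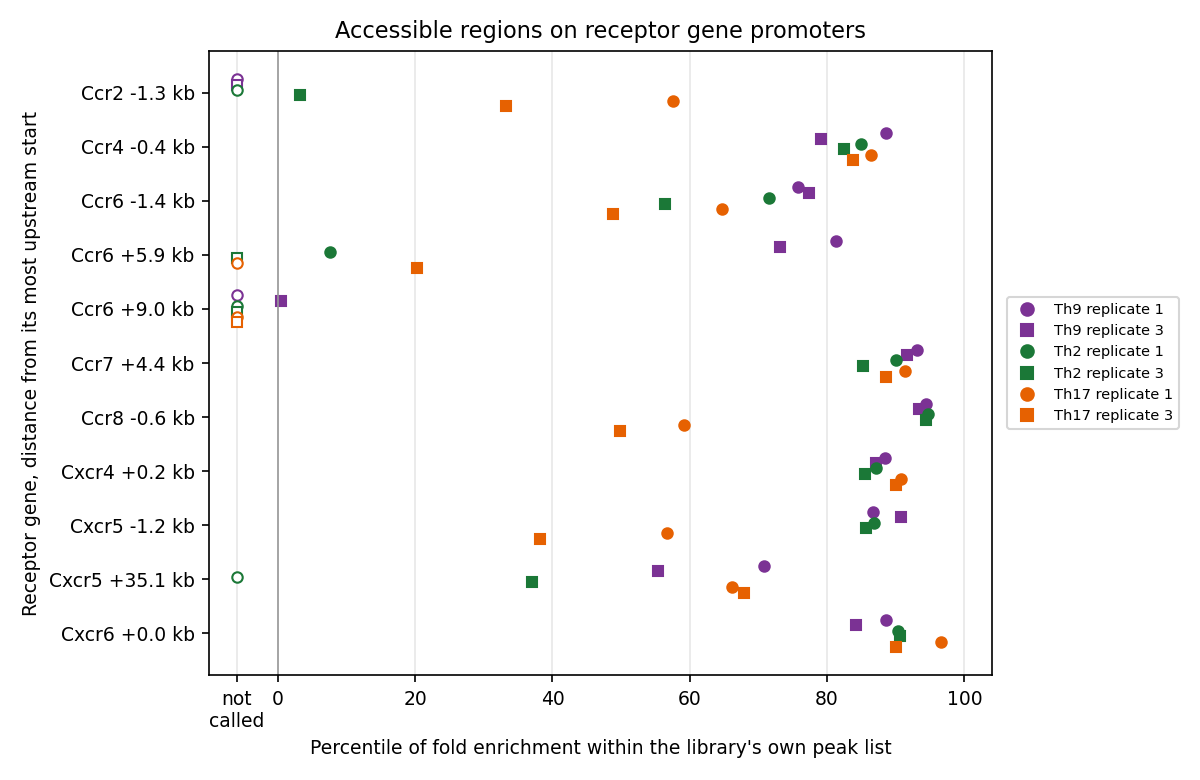
Percentile of fold enrichment (x axis) of the 11 regions that overlap a receptor promoter (y axis, distance from the most upstream start), with 1 point per library, circles for replicate 1 and squares for replicate 3. Open symbols mark a library without a peak. A region can overlap the promoter window while the peak of a single library does not. Th17 points stand apart on the low side at Ccr8 and at the Cxcr5 region 1.2 kb upstream, and all 6 points lie together for Ccr4, Ccr7, Cxcr4 and Cxcr6.

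Ccr4, the receptor for CCL17 and CCL22 and, like Ccr8, known from Th2 cells, differed from Ccr8 at its promoter. The Ccr4 promoter region had percentiles of 88.6 and 79.1 in Th9, 85.0 and 82.4 in Th2, against 86.4 and 83.8 in Th17. These ranges overlapped, and no contrast passed the test (adjusted p 0.64 to 0.88). A distal region in an intron of the neighbour Glb1, 24.4 kb downstream of the start (chr9:114471635-114472462), had 91.0 and 89.1 in Th9, 95 and 93.0 in Th2, against 66.9 and 66.6 in Th17. The log2 difference was -1.31 ± 0.15 against Th2 (adjusted p = 0.0011, kept without any 1 library) and -0.97 ± 0.15 against Th9 (adjusted p = 0.0057, but 0.071 without Th17 replicate 1 and 0.052 without Th17 replicate 3). Another, 8.6 kb downstream (chr9:114486759-114489263), was lower in Th17 than in Th9 by a log2 difference of -0.85 ± 0.15 (adjusted p = 0.011, up to 0.12 without Th9 replicate 3, Th17 replicate 1 or Th17 replicate 3), with percentiles from 74.2 to 83.2 in Th17 and from 92.4 to 93.2 in Th9. A weak region called only in Th9, 29.3 kb downstream in Glb1, had percentiles of 11.7 and 8.6.

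Ccr3, the eotaxin receptor best known from eosinophils, had no peak on the promoter window in any library, and one in 4 libraries when the window was 2000 bases on either side of a start. Its regions lay inside and beyond the gene. An intron region 1.3 kb into the gene (chr9:124022919-124023421) had percentiles of 84.4 and 47.9 in Th9, 72.4 and 70.0 in Th2 and no peak in Th17, and an exon region 6.8 kb in had 61.8 and 30.3, 65.2 and 59.3, and none. The Th2 libraries alone called 2 regions, one on an exon 9.1 kb in (71.9 and 56.1) and one 11.6 kb downstream of the start (55.4 and 56.4). A region 38.2 kb downstream (chr9:124059932-124060379) was called in every library, at 76.0 and 61.1 in Th9, 88.6 and 88.7 in Th2, against 71.8 and 51.0 in Th17. It was lower in Th17 than in Th2 by a log2 difference of -0.89 ± 0.16 (adjusted p = 0.0078, but 0.11 without Th17 replicate 3 and 0.052 without Th2 replicate 3), and the Th9 minus Th2 call (-0.76, adjusted p = 0.036) was lost whichever library was left out. The sequence covered by peaks at Ccr3 was 1.15 and 1.23 kb in Th9, 2.1 and 2.2 kb in Th2, against 0.66 and 0.29 kb in Th17.

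Ccr2, the receptor for CCL2 on monocytes and some effector T cells, was highest in Th2 at one region upstream of the gene. The region 2.6 kb upstream (chr9:124099046-124099647) had percentiles of 68.2 and 39.2 in Th9, 88.8 and 92.4 in Th2, against 59.2 and 58.9 in Th17. The log2 difference was -1.12 ± 0.18 for Th17 minus Th2 (adjusted p = 0.0050) and -1.18 ± 0.18 for Th9 minus Th2 (adjusted p = 0.017), and both calls were lost when single libraries were left out (0.058 without Th17 replicate 1, 0.052 without Th17 replicate 3 for the first, and up to 0.097 without Th9 replicate 1, Th9 replicate 3 or Th2 replicate 3 for the second). A peak on the promoter window was called in the 2 Th17 libraries, at 57.6 and 33.3 (in 5 libraries with 2000 bases on either side of a start, and in 0 at a -log10 q of at least 5), and the region it belongs to reached 3.2 in Th2 replicate 3. The peaks at Ccr2 covered 0.82 and 0.66 kb in Th9, 2.33 and 2.80 kb in Th2, against 2.39 and 2.1 kb in Th17.

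Ccr6, the receptor for CCL20, was called in all 3 subsets. The region overlapping its most upstream start (chr17:8233629-8236213) had percentiles of 75.8 and 77.3 in Th9, 71.6 and 56.5 in Th2, against 64.8 and 48.9 in Th17. No contrast passed the test (limma adjusted p 0.17 to 0.84). The part that all 6 libraries shared lay 1.4 kb upstream of that start, outside the promoter window. The peaks of both Th2 libraries and of Th17 replicate 1 in this region did not reach that window. The covered bases differed more, at 2120 and 1309 in Th9, 444 and 333 in Th2, against 1395 and 2487 in Th17, so that the Th2 libraries were the narrowest. A region at downstream starts, 5.9 kb in, had 81.3 and 73.1 in Th9, 7.5 in Th2 replicate 1 and 20.2 in Th17 replicate 3. It had no peak in the other 2 libraries. The promoter region 9.0 kb in had a peak in Th9 replicate 3 alone, at 0.39. A region 26.0 kb upstream (chr17:8209290-8211082) had 89.8 and 80.4 in Th9, 52.3 and 21.9 in Th2, against 75.3 and 75.1 in Th17. Th9 exceeded Th2 by a log2 difference of 1.10 ± 0.16 (adjusted p = 0.015) and Th17 exceeded Th2 by 0.65 ± 0.16 (adjusted p = 0.033), and both were lost without single libraries, with adjusted p up to 0.079 (Th9 replicate 1, Th9 replicate 3 or Th2 replicate 3) and 0.21 (either Th17 or either Th2 library). A region 9.2 kb upstream (chr17:8226760-8227133) was called in Th17 alone, at 79.7 and 51.9, and one 28.8 kb downstream in Th2 alone, at 40.9 and 44.2.

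Ccr7, the receptor for CCL19 and CCL21, kept its promoter region in every library, with percentiles of 93.1 and 91.7 in Th9, 90.0 and 85.2 in Th2, against 91.4 and 88.5 in Th17, and no contrast passed the test (adjusted p 0.14 to 0.61). The distal regions differed. One 25.2 kb upstream (chr11:99180033-99181180) had 82.8 and 82.1 in Th9, 75.9 and 74.3 in Th2, against 46.3 and 35.2 in Th17, and was lower in Th17 than in Th9 by a log2 difference of -0.88 ± 0.15 (adjusted p = 0.010, up to 0.089 without Th9 replicate 3, Th17 replicate 1 or Th17 replicate 3). One 16.0 kb upstream (chr11:99170564-99171648) had 98.3 and 95.4 in Th9, 92.9 and 87.3 in Th2, against 91.3 and 87.3 in Th17. Th9 was above Th2 by 0.82 ± 0.17 (adjusted p = 0.038, lost whichever library was left out) and Th17 was below Th9 by a difference of -0.81 ± 0.17 (adjusted p = 0.024, up to 0.19 without Th9 replicate 1 or either Th17 library). A region 5.9 kb upstream (chr11:99160735-99161160) was called in Th9 alone, at 88.8 and 55.9, and one 18.5 kb downstream in Th17 alone, at 37.8 and 65.0. The Ccr7 region called in Th9 alone shared its libraries with the weak Cd79b promoter peak, at percentiles of 7.60 and 12.9. The Ccr6 region 5.9 kb in, strongest in Th9, also had peaks in Th2 replicate 1 (7.5) and Th17 replicate 3 (20.2). Of 5 B cell marker promoters, 3 had no peak in any library. Whether B cells were present or had a part in these results was not tested.

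Cxcr5, the receptor for CXCL13 that brings T cells to B cell follicles, was the second gene with a differing region that overlapped a promoter window. The region (chr9:44562506-44563571) overlapped the window of the gene's most upstream start. It had percentiles of 86.7 and 90.8 in Th9, 86.9 and 85.7 in Th2, against 56.7 and 38.2 in Th17. The part that all 6 libraries shared lay 1.2 kb upstream of that start, outside the promoter window. The peak of Th17 replicate 1 covered only that part (211 bases) and did not reach the window. The Th17 libraries lay below all others, by a log2 difference of -0.95 ± 0.19 against Th2 (adjusted p = 0.015) and -1.18 ± 0.19 against Th9 (adjusted p = 0.0076). Without Th17 replicate 1 or 3 these became 0.086 and 0.14 against Th2 and 0.068 and 0.083 against Th9, and without Th2 replicate 3 the first was 0.079. An intron region 23.8 kb into the gene (chr9:44537521-44538474) had 92.4 and 94.2 in Th9, 90.3 and 92.8 in Th2, against 79.4 and 76.5 in Th17 (-0.72 ± 0.19 with adjusted p = 0.047 against Th2, up to 0.25 without Th2 replicate 3 or either Th17 library, and -0.94 ± 0.19 with adjusted p = 0.019 against Th9, up to 0.14 without Th9 replicate 3 or either Th17 library). The region at the start farthest downstream, 35.1 kb in, ran the other way, with 70.8 and 55.4 in Th9, no peak and 37.0 in Th2, against 66.2 and 67.9 in Th17. It was not tested because 1 library had no peak.

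Cxcr4, the receptor for CXCL12, had a promoter region at percentiles of 88.4 and 87.1 in Th9, 87.2 and 85.6 in Th2, against 90.8 and 90.1 in Th17 (adjusted p 0.17 to 0.67). Its distal regions moved in opposite directions. One 22.0 kb downstream (chr1:128569898-128572005) was strong in every list, at 98.2 and 97.2 in Th9, 99.1 and 97.4 in Th2, against 90.2 and 92.0 in Th17, a log2 difference of -0.89 ± 0.18 for Th17 minus Th2 (adjusted p = 0.014) and -0.78 ± 0.18 for Th17 minus Th9 (adjusted p = 0.030). One 13.7 kb upstream (chr1:128605757-128606289) was higher in Th17, at 69.7 and 58.5, 76.2 and 69.7, and 89.2 and 83.7 in the same order, with differences of 0.66 ± 0.14 against Th2 (adjusted p = 0.021) and 0.83 ± 0.14 against Th9 (adjusted p = 0.0097). Each of these calls was lost without Th17 replicate 1 or 3 (adjusted p 0.053 to 0.22). They were also lost without a Th2 or Th9 library of the contrast (0.055 to 0.12), other than the first without Th2 replicate 3 and the last without Th9 replicate 3. The Cxcr4 region called in Th9 alone, 17.8 kb upstream, was weak, at 16.2 and 16.5.

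Cxcr6, the receptor for CXCL16, had the fewest regions. Its promoter region had percentiles of 88.6 and 84.2 in Th9, 90.4 and 90.7 in Th2, against 96.6 and 90.0 in Th17, with no contrast passing the test (adjusted p 0.072 to 0.58). The region 8.1 kb downstream (chr9:123810455-123816370), which overlaps an exon of Cxcr6 and was singled out after its values were seen, had like strength in all libraries, at 79.1 and 80.9, 79.5 and 84.3, and 74.0 and 80.3. The bases covered were 722 and 1456 in Th9, 4259 and 5916 in Th2, against 1137 and 1221 in Th17. Both Th2 libraries thus covered more than 2 times the widest other library, which held for 437 of 50493 regions (0.865%) and for 1 of the 41 receptor regions. With 2 libraries against 2, an exact two-sided permutation test cannot go below 0.333, so no test of width was made.

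**Figure D4:**
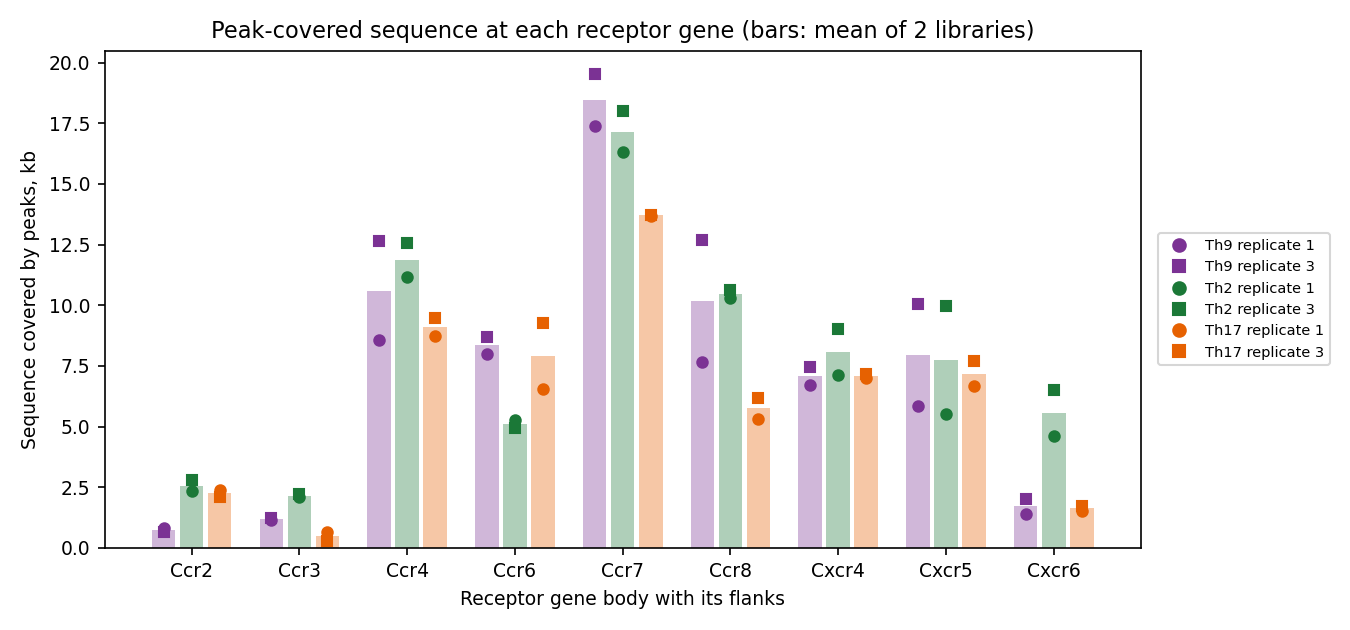
Sequence covered by peaks (y axis, kb) within each receptor gene and its flanks, with bars for the mean of 2 libraries and points for each library. The Th2 libraries cover 4.62 and 6.50 kb at Cxcr6 against 1.41 to 2.02 kb in the others, and the Th17 libraries cover the least at Ccr3 and Ccr8.

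**Figure D5:**
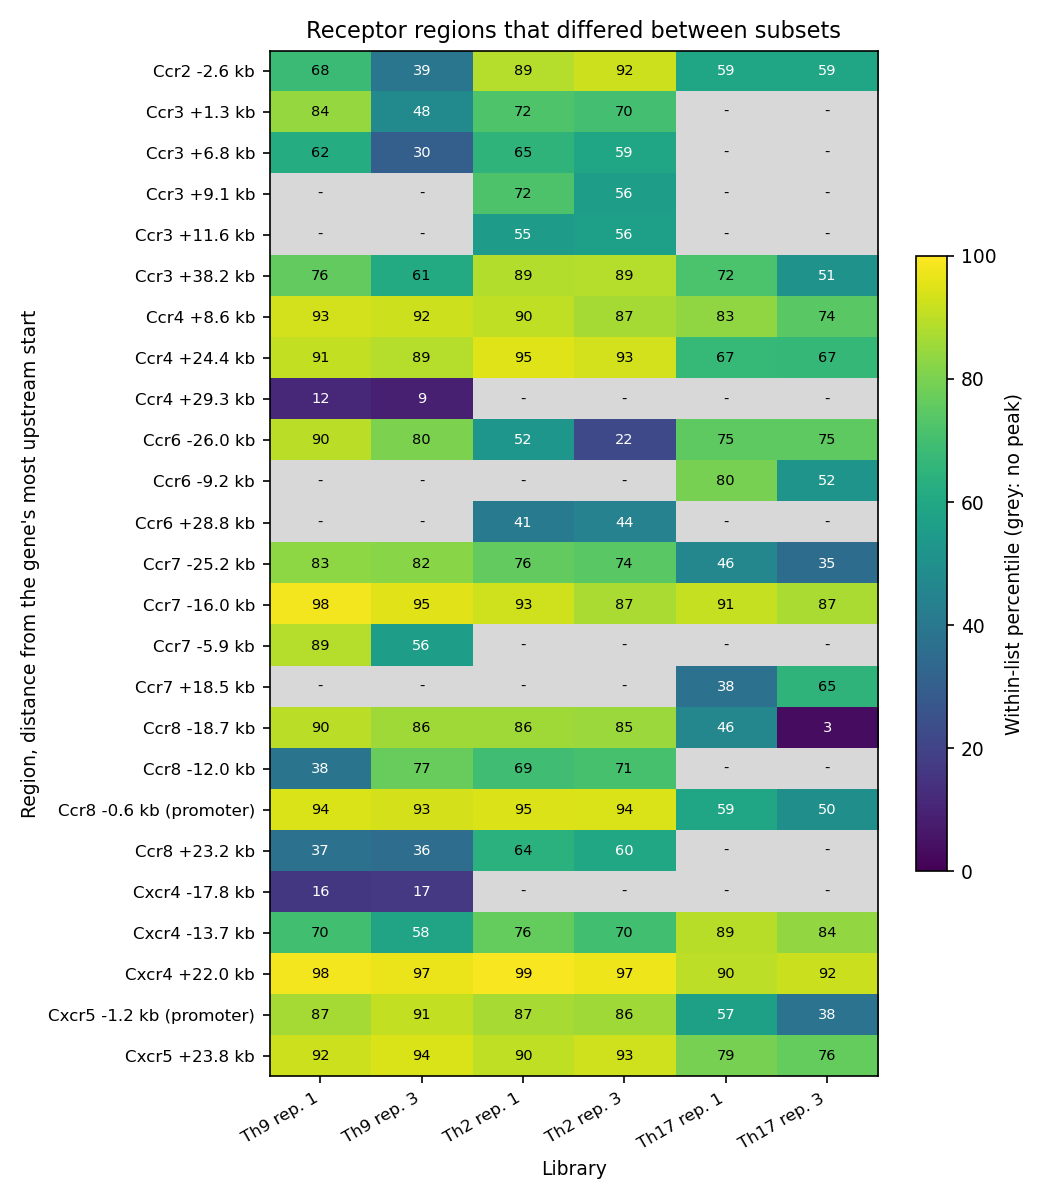
Percentile of fold enrichment in each library (columns) for the 25 receptor regions that differed between subsets (rows, distance from the start). Grey marks no peak. Ccr8 rows are low or empty in both Th17 columns, and the Ccr6 region at -9.2 kb is filled in Th17 alone.

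A peak on the promoter window itself was called in all 6 libraries for 6 of the 9 receptors (Ccr4, Ccr7, Ccr8, Cxcr4, Cxcr5 and Cxcr6), against 58.7% of 21924 protein-coding genes. For Cxcr5 this joined different starts, since the strongest Th17 promoter peaks (66.2 and 67.9) were those of the region 35.1 kb in. Ccr6 had one in 4 libraries, Ccr2 in 2 and Ccr3 in none, and with 2000 bases on either side of a start these were 6, 5 and 4. At a fold enrichment of at least 4, Ccr4, Ccr8 and Cxcr5 had one in 4 libraries each and Ccr6 in 0. Among 15 other receptor genes of the family, 3 had a promoter peak in all 6 libraries (Ccr9, Ccrl2 and Ackr3) and 4 in none (Ccr1l1, Xcr1, Ackr2 and Ackr4). Ccr1, an inflammatory receptor near Ccr3, had percentiles of 82.9 and 86.7 in Th2, against 32.3 in Th9 replicate 3, 47.9 in Th17 replicate 1 and no peak in the other 2 libraries. The windows of these 15 genes held 144 further regions, of which 47 were called in all 6 libraries. Of those 47, 1 was higher and 2 lower in Th17 than in Th2, 0 higher and 2 lower in Th9 than in Th2, against 1 higher and 3 lower in Th17 than in Th9.

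The protein-coding promoters whose 6 percentiles were most like those of Ccr8, over 13379 other genes with a promoter region in all 6 libraries, were Ccn2 (mean absolute difference 3.72 percentile points) and Nepn (3.94). For the Cxcr5 region 1.2 kb upstream they were Ccn2 (5.52) and Ftl1-ps1 (5.91). Ccn2 had percentiles of 91.6 and 87.8 in Th9, 91.9 and 90.1 in Th2, against 63.3 and 47.4 in Th17.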

How the data were processed

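ATAC-seq was measured in 6 libraries of in vitro polarized Th9, Th2 and Th17 cells, 2 per subset. Per the labels and the study's methods, the authors trimmed reads with Trim Galore 0.4.3, aligned them with Bowtie2, removed duplicates with Picard, excluded low mapping quality and mitochondrial reads, and called broad peaks on each library alone with MACS2 2.1.0 without input or local background. The deposited lists hold fold enrichment (a ratio to the library's mean coverage), a score and the -log10 p-value and -log10 q-value of each peak (mm10). They hold no read counts, so depth is known only through the background coverage, and intervals cannot be given.

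Peaks that overlapped or touched, in any list, were merged into 1 region, and each library's value was its strongest peak in the region. Genes and starts were those of GENCODE M21 (basic set), and a region belonged to a receptor when it overlapped the gene body or 30 kb on either side by at least 1 bp. Regions called in all 6 libraries were compared on quantile-normalised log2 fold enrichment with limma 3.58.1 (R 4.3.3), over 50493 regions, with Benjamini-Hochberg adjustment at 0.05 per contrast. On simulated data with 200 planted changes of log2 size 1 (Th17 against Th2, 50493 regions), 184 were recovered and 19 others were called. False calls thus made up more than the nominal share of 0.05. The simulated noise was normal and independent between libraries, with the fitted spread of each region. Named were each promoter region, each distal region with a subset pattern and each region with a call. Alternatives changed the peak threshold, the value compared, the window, the promoter and the libraries used. The members, gene lists and words were chosen with earlier results of these data known. The 5 distal sequences shown were picked by percentile gap (a library without a peak counted as 0) after values were seen, and hold at most 300 bases of the part shared by the libraries with a peak. Values of 1 B cell marker and of 1 receptor outside the 9 are not reported here.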

Additional observations from a re-analysis of the deposited data

How the results depend on the processing

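The main counts moved with the peak threshold and the scale of the values. All 6 libraries called 41 of 102 receptor regions (40.2%, against 21.4% of all regions), 17 of 102 (16.7% against 10.4%) when at least 50% of the region had to be covered, 19 of 58 within 10 kb (32.8% against 21.4%), 19 of 72 at a -log10 q of at least 5 (26.4% against 33.5%) and 9 of 37 at a fold of at least 4 (24.3% against 36.5%). Promoter peaks of Ccr6, Ccr2 and Ccr3 (4, 2 and 0 libraries) were in 6, 5 and 4 with 2000 bases on either side of a start, in 2, 0 and 0 at the q threshold, in 0, 0 and 0 at a fold of 4, in 2, 1 and 0 at a fold of 2.2, and in 3, 2 and 0 with lists of equal length. The Th9 and Th2 pattern without Th17 (4 regions, 3.92% against 2.0% of all) had 1 at 50% coverage (0.98% against 1.61%). It had 2 within 10 kb (3.45% against 2.0%), 5 of 72 at the q threshold (6.94% against 2.82%) and 6 of 37 at a fold of 4 (16.2% against 5.01%). With 1 library left out, its subset was judged by its other library alone. The Th2-only count of 3 (2.94% against 2.87% of all) became 7 at 50% coverage (6.86% against 4.09%). It ran from 3 to 7 when 1 library was left out (3% to 7%, against 3.37% to 11.4% of all). The Th9-only count of 3 (2.94% against 1.31% of all) became 1 within 10 kb (1.72% against 1.31%) and 1 at the q threshold (1.39% against 0.572%). It was 0 at a fold of 4 (against 2.38%) and 1 with lists of equal length (1.04% against 1.47%). Without 1 library it ran from 3 to 9 (3% to 9.28%, against 1.51% to 13.1% of all). The Th17-only count of 2 (1.96% against 1.7% of all) became 4 at 50% coverage (3.92% against 2.22%) and 0 at a fold of 4 (against 1.4%). Without 1 library it ran from 3 to 6 (3.09% to 6%, against 2% to 8.02% of all). Th2 with Th17 (0, against 1.55% of all) became 2 at 50% coverage (1.96% against 1.74%) and 1 at a fold of 2.2 (1.15% against 0.657%). Without 1 library it ran from 0 to 3 (0% to 3.12%, against 2.08% to 4.37% of all). Th9 with Th17 (0, against 0.296% of all) became 3 at 50% coverage (2.94% against 0.208%). It was 1 at the q threshold (1.39% against 0.202%) and 1 at a fold of 2.2 (1.15% against 0.268%). Without 1 library it ran from 0 to 2 (0% to 2.04%, against 0.481% to 1.33% of all).

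The limma calls at receptor regions were 10 for Th17 against Th2, 10 for Th17 against Th9 and 4 for Th9 against Th2. These calls made up 24.4%, 24.4% and 9.76% of 41 regions, against 7.24%, 6.05% and 2.81% of all regions. In that order they became 0, 0 and 0 on the percentile scale and 3, 1 and 0 on it with a trend (chosen after the data were seen). At the q threshold they were 3, 5 and 1 of 19 regions (15.8%, 26.3% and 5.26%, against 7.53%, 4.68% and 4.54% of all regions). Within 10 kb they were 4, 4 and 1 of 19 regions (21.1%, 21.1% and 5.26%, against the same shares of all regions as in the main fit). At a fold of 2.2 they were 6 and 6 for the first 2, of 31 regions (19.4% each, against 8.55% and 6.35% of all regions). Without 1 library they ran from 3 to 12, 2 to 10 and 0 to 2. The cause of these changes was not tested. Samples with the same replicate number deviated together between Th9 and Th2 (correlation 0.207) but not in the other 2 pairs (0.0098 and 0.00096). The numbers were therefore not taken as pairs. With a replicate block the calls were 11, 10 and 4 (26.8%, 24.4% and 9.76%, against 8.33%, 7.05% and 3.79% of all regions). None of the called differences changed direction under the alternatives in which its region was tested. With 2 libraries a subset and no counts, weak differences cannot be resolved.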
